A study of Homo sapiens with 4 samples.

Results

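The mitotic and G2/M genes are 44 genes whose products prepare a cell for division and carry it through. They were chosen by name: a gene was a member where the gene symbol of an array probe equalled its symbol or an older or newer synonym, so *CDC2* is *CDK1*, *STK6* is *AURKA* and *DLG7* is *DLGAP5*. The rule itself uses names and no measured value, but the list was drawn up with earlier results of these data known. The members had 56 of the 33096 gene probes on the array. After probes were averaged into 28568 features, 43 of the 44 members were among the 18934 features that passed the filter on signal-to-noise ratio (S/N). The member left out was *NUSAP1*.

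RNA came from LN229 cells, an established human glioblastoma line, and was hybridised to 1-colour chemiluminescent oligonucleotide arrays. Cells of the *SOX2* knockdown group had been transfected with siRNA against *SOX2*, and cells of the mock knockdown group with a control siRNA without a target. Each group had 2 arrays. Per the study's methods they are biological replicates, from cells transfected separately. The knockdown was transient, in 1 line and read at 1 time after transfection, and which of the *SOX2* siRNAs went onto the arrays is not given in the sources used here.

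As background, a cell enters mitosis when cyclin-dependent kinase 1, bound to A- and B-type cyclins, becomes active. Aurora and Polo-like kinases and kinesin motors then build the spindle, the spindle checkpoint holds the cell until every chromosome is attached, and the anaphase-promoting complex ends mitosis by having cyclins and securin degraded. Most of these genes are transcribed together late in the cell cycle. The DREAM complex represses them in resting cells, and MYBL2 and FOXM1 activate them in dividing cells. Both act through a promoter element called the cell cycle genes homology region (CHR). Many of these promoters also hold CCAAT boxes. Transcripts of these genes are widely read as a proliferation signature in gliomas and other tumours.

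The promoter sequences show what the members share besides their names. Promoters of 300 bases, 250 before and 50 after the annotated transcription start, were taken from RefSeq (GRCh38.p14) for 38 of the 44 members. *STK6*, *BIRC5*, *FOXM1*, *TPX2*, *TTK* and *UBE2C* had no entry there. The letters TTTGAA, the CHR core, were found on either strand in 27 of the 38 (71.1%), against 15.2% of all 35116 promoters of that length. The letters CCAAT were found on either strand in 31 (81.6%), against 34.6% of all promoters, and both motifs in 24 (63.2%), against 5.9%. Below are the 130 bases before the start of 6 members, printed 5′ to 3′ on the gene's strand: *CCNA2* and *BUB1*, which had the largest log2 changes, *PLK1*, *KIF23* and *CKS1B*, which carry both motifs close to the start, and *PTTG1*, the member with the most negative log2 change. Capitals mark the 2 motifs, where TTTGAA reads TTCAAA and CCAAT reads ATTGG when it lies on the opposite strand. Overlapping matches run together, and a match that starts upstream of the window shows only its last letters.
CCNA2 (chr4:121823884-121824013, minus strand): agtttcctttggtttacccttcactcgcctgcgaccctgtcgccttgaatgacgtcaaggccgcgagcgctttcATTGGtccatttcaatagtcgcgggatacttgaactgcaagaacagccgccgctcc
BUB1 (chr2:110678064-110678193, minus strand): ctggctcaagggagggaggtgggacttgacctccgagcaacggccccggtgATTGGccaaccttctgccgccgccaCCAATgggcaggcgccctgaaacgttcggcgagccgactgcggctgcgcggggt
PLK1 (chr16:23678759-23678888, plus strand): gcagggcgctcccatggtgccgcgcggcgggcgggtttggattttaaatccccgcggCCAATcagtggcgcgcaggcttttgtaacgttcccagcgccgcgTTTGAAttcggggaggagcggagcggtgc
KIF23 (chr15:69414219-69414348, plus strand): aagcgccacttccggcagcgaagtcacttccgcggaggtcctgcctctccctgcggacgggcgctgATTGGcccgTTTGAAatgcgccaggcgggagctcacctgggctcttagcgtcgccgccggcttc
CKS1B (chr1:154974551-154974680, plus strand): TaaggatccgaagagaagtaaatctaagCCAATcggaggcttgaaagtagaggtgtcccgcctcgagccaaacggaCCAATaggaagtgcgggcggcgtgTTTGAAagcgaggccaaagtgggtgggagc
PTTG1 (chr5:160421725-160421854, plus strand): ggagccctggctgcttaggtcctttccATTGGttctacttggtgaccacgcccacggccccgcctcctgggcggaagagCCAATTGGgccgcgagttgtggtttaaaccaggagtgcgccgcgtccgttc

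In *PLK1* the CCAAT box began 73 bases and TTTGAA 29 bases before the start, and in *KIF23* they began 64 and 55 bases before it. *CCNA2*, *BUB1* and *PTTG1* had CCAAT without TTTGAA in the whole 300 bases, which says only that these letters are not in this window. The 23 members that passed the filter and had both motifs had a median log2 change of 0.22, the 7 with CCAAT alone one of 0.37, the 3 with TTTGAA alone one of 0.35 and the 4 with neither one of 0.33, given as a description with no test. A match of letters is a description of the sequence and was not measured as a bound site.

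Every signal below is a linear value divided by the array's 75th percentile (a relative signal). Such values can be compared between arrays for 1 gene and not between genes, since each probe has its own brightness. A log2 change is the mean log2 signal of the knockdown arrays minus that of the mock arrays, so a positive value is higher after *SOX2* knockdown. *SOX2* itself gave 0.450 and 0.674 under mock knockdown and 0.202 and 0.144 under *SOX2* knockdown, a log2 change of -1.69 ± 0.28 (SE, n = 2 arrays per group, limma adjusted p = 0.111), with no overlap of the groups, at S/N between 3.06 and 13.6. The treatment label names a colon cancer line, SW620, where all other labels name LN229. Of 9 intestinal markers, 1 (*VIL1*) had S/N over 3 on all 4 arrays and 4, *KRT20*, *CDH17*, *CDH1* and *GUCY2C*, on none. Of 9 neural and mesenchymal markers, 7 had S/N over 3 on all 4 arrays and 1 on none. The summed relative signal of the intestinal markers lay between 0.180 and 0.262 over the 4 arrays, and that of the others between 99.7 and 134. Each sum was lower on both knockdown arrays. The sums cannot be compared with each other, since they cover different probes.

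Nearly all mitotic and G2/M genes had more signal after *SOX2* knockdown, each by a small amount. The log2 change was above 0 for 41 of the 43 members (95.3%) and for 49.9% of all features. Its median was 0.28 over the members and 0.00 over all features, and it ran from -0.23 for *PTTG1* to 0.64 for *CCNA2*. Both knockdown arrays lay above both mock arrays for 36 members (83.7%), against 21.4% of all features, and below both for 1 member, *PTTG1* (2.33%), against 25.9% of all features. The groups overlapped for *CDC25C*, *CKS2*, *ESPL1*, *AURKB*, *PRC1* and *TOP2A*.

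No member passed the 2-fold cutoff that the study's methods use, where 1.48% of all features were past it upwards and 0.903% downwards. Past 1.5-fold upwards were *CCNA2* and *BUB1* (4.65% of the members, against 5.06% of all features), and no member was past it downwards, against 4.83%. In limma no member had an adjusted p under 0.05 (0% of all features) or under 0.1 (1.76% of all features), and the smallest adjusted p among members was 0.134 for *CCNA2*. At an unadjusted p under 0.05, limma had 12 members higher (27.9%, against 8.1% of all features) and 0 lower (against 9.14%). The members' SE ran from 0.12 to 0.29 on the log2 scale with a median of 0.14, and the median half-width of their 95% intervals was 0.37, more than the members' median log2 change. In bulk RNA of a culture, a larger share of cells near mitosis and more transcript per cell cannot be told apart. The study reported fewer colonies and, in an assay over several days, fewer cells after *SOX2* knockdown in LN229. The arrays did not measure growth, and how these results relate was not tested.

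**Figure D1:**
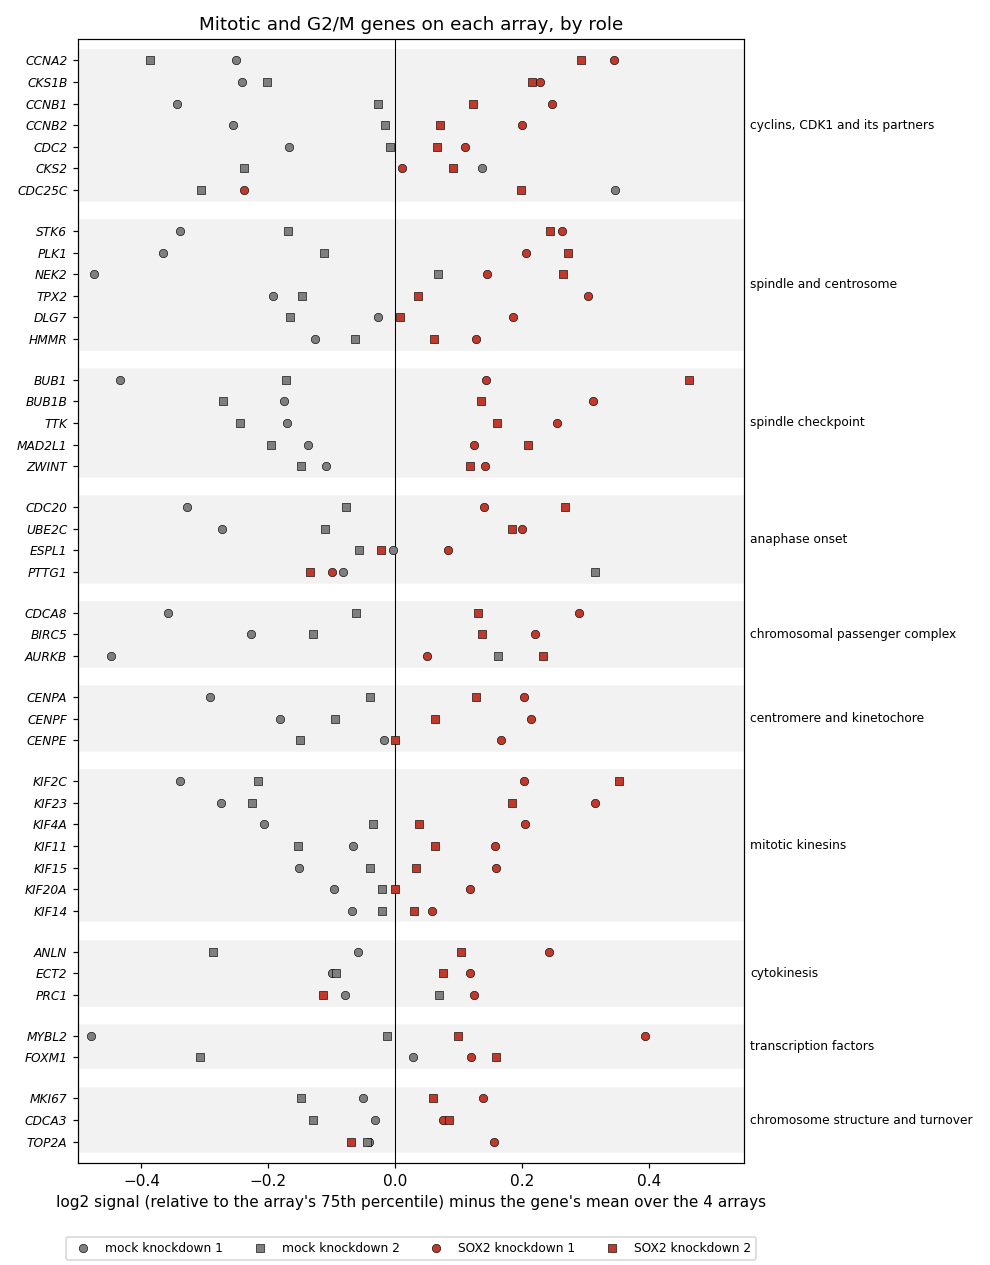
Log2 signal of each of the 43 members on each of the 4 arrays, relative to the gene's own mean over the arrays (horizontal axis) and grouped by role (grey, mock knockdown; red, *SOX2* knockdown; circles, replicate 1; squares, replicate 2). Red points lie to the right of grey points for 36 members, and replicate 1 of *SOX2* knockdown is the highest array for 31 of them all.

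The shift was present in each pairing of arrays, with unequal size. Taking 1 knockdown and 1 mock array at a time, between 37 and 41 of the 43 members were higher on the knockdown array. The median difference ran from 0.20 to 0.40 on the log2 scale, against -0.06 to 0.02 over all features. Replicate 1 of *SOX2* knockdown held the highest signal of 31 members and replicate 1 of mock knockdown the lowest of 25. Over all features, the median log2 signal relative to each feature's own mean was -0.03 and 0.03 on these arrays in that order. The shares of all features for the counts in this paragraph were not taken. Within groups the differences were smaller, with a median of 0.06 between the mock arrays (replicate 2 minus replicate 1) and of -0.07 between the knockdown arrays. These pairings depend on the scaling and were not counted under any other. The pooled within-group SD of the members' array medians was 0.04 here. It was 0.16 when arrays were scaled to their medians, and 0.17 with no further scaling and in the table the authors processed.

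Cyclins, CDK1 and its partners form the engine of mitotic entry, and 6 of the 7 had a log2 change above 0. *CCNA2*, cyclin A2, which drives S phase and the entry into mitosis, gave a relative signal of 1.13 and 1.03 under mock knockdown and 1.71 and 1.65 after *SOX2* knockdown, a ratio of means of 1.55. Its log2 change was 0.64 ± 0.13 (SE, n = 2 arrays per group, limma adjusted p = 0.134), the largest among the members, and the groups were well apart. *CKS1B*, a small subunit that binds cyclin-dependent kinases, gave 6.79 and 6.98 against 9.40 and 9.32, mock knockdown named first here and below, from 3 probes that were each higher after knockdown. *CCNB1*, the cyclin B1 that activates CDK1 at mitotic entry, gave 2.53 and 3.16 against 3.82 and 3.50, and its mock arrays differed from each other by more than the knockdown arrays did. *CCNB2*, the second B-type cyclin, gave 0.924 and 1.09 against 1.27 and 1.16. *CDC2*, the kinase CDK1 itself, gave 2.50 and 2.79 against 3.03 and 2.94. For these genes the groups did not overlap, but the nearest arrays of *CCNB2* and *CDC2* lay close together. *CKS2*, the paralogue of *CKS1B*, gave 6.27 and 4.83 against 5.75 and 6.08. *CDC25C*, the phosphatase that removes the inhibitory phosphates from CDK1, gave 1.94 and 1.23 against 1.29 and 1.75, with a log2 change of -0.04 ± 0.29 (SE, n = 2 arrays per group, limma adjusted p = 0.979). In both of these genes the mock arrays spanned the knockdown arrays, and *CDC25C* had the largest SE of all members.

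Spindle and centrosome genes were higher in all 6 members that passed the filter, with no overlap of the groups and a median log2 change of 0.37. *STK6*, Aurora A, which matures centrosomes, gave 1.67 and 1.87 under mock knockdown and 2.53 and 2.50 after *SOX2* knockdown, a log2 change of 0.51 ± 0.13 (SE, n = 2 arrays per group, limma adjusted p = 0.187). *PLK1*, Polo-like kinase 1, which acts at centrosomes, kinetochores and cytokinesis, gave 0.881 and 1.05 under mock knockdown and 1.31 and 1.37 after *SOX2* knockdown, with a log2 change of 0.48. The value of *PLK1* comes from its own probe alone, because the array's annotation puts this probe under the same gene ID as a probe of the ribosomal gene *RPL37A*. *TPX2*, which activates Aurora A on spindle microtubules, gave 2.55 and 2.63 against 3.59 and 2.98, and *NEK2*, a kinase that separates centrosomes, gave 1.02 and 1.49 against 1.57 and 1.70. Mock replicate 1 of *NEK2* stood well below the other 3 arrays, and mock replicate 2 lay near the knockdown arrays. *HMMR*, a hyaluronan receptor that also binds the spindle, gave 0.829 and 0.866 against 0.989 and 0.943, and *DLG7*, which stabilises fibres at kinetochores, gave 1.20 and 1.09 against 1.39 and 1.23. Both were separated by narrow gaps. *NUSAP1*, which bundles spindle microtubules, had 2 probes, both at background with S/N under 3 on all 4 arrays, and their ratios of means were 0.740 and 1.24, so no direction can be given for it.

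The spindle checkpoint had the largest median of the 10 roles, 0.42, and all 5 members were higher with no overlap. *BUB1*, the kinase that gathers checkpoint proteins at kinetochores, gave 0.355 and 0.425 under mock knockdown and 0.529 and 0.661 after *SOX2* knockdown, a ratio of means of 1.53 and a log2 change of 0.61 ± 0.18 (SE, n = 2 arrays per group, limma adjusted p = 0.223). *BUB1B*, BUBR1, a part of the complex that inhibits CDC20, gave 0.274 and 0.256 against 0.383 and 0.339. *TTK*, the MPS1 kinase at the top of the checkpoint, gave 0.913 and 0.867 against 1.23 and 1.15. In both genes the arrays of each group lay close together relative to the gap between groups. *MAD2L1*, MAD2, which holds CDC20 inactive, gave 2.93 and 2.82 against 3.52 and 3.73, and *ZWINT*, a kinetochore protein, gave 2.98 and 2.90 against 3.54 and 3.48. Their gaps were small and their replicates close.

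The genes of anaphase onset did not all lie on the same side. *CDC20*, the activator of the anaphase-promoting complex, gave 1.49 and 1.78 under mock knockdown and 2.07 and 2.26 after *SOX2* knockdown, and its 2 probes gave ratios of means of 1.34 and 1.31. *UBE2C*, the ubiquitin-conjugating enzyme of that complex, gave 4.25 and 4.76 under mock knockdown and 5.90 and 5.84 after *SOX2* knockdown. Both were higher after knockdown on both arrays, with log2 changes of 0.41 and 0.38. *PTTG1*, securin, the protein that complex destroys to set separase free, gave 8.55 and 11.3 under mock knockdown and 8.44 and 8.24 after *SOX2* knockdown, a log2 change of -0.23 ± 0.18 (SE, n = 2 arrays per group, limma adjusted p = 0.611). It was the only member whose knockdown arrays both lay below both mock arrays, and mock replicate 2 stood apart while mock replicate 1 lay just above the knockdown arrays. Without mock replicate 2 its log2 change was -0.04, and without mock replicate 1 it was -0.43. *ESPL1*, separase, which cleaves cohesin, gave 0.907 and 0.874 against 0.963 and 0.895, and its groups overlapped.

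The chromosomal passenger complex corrects faulty attachments of chromosomes, and its 3 members all had positive log2 changes. *BIRC5*, survivin, gave 3.17 and 3.39 against 4.32 and 4.07, and its 2 probes gave ratios of means of 1.31 and 1.21. *CDCA8*, borealin, gave 0.409 and 0.502 against 0.641 and 0.574. *AURKB*, Aurora B, the kinase of the complex, gave 1.14 and 1.74 against 1.61 and 1.83, so that mock replicate 2 lay above knockdown replicate 1. Among centromere and kinetochore genes, *CENPA*, the histone variant that marks centromeres, gave 0.848 and 1.01 against 1.19 and 1.13. One of its 2 probes did not separate the groups on its own, with 0.687 and 0.890 against 0.967 and 0.856, although its ratio of means was also above 1. *CENPF*, a large protein of the outer kinetochore, gave 4.47 and 4.75 against 5.88 and 5.29, and *CENPE*, a kinesin motor of the kinetochore, gave 0.578 and 0.527 against 0.657 and 0.585. All 3 were higher after knockdown without overlap, *CENPE* by the narrowest margin.

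Mitotic kinesins, the motors of the spindle, were higher without overlap in all 7 members, with a median log2 change of 0.22. *KIF2C*, MCAK, which takes microtubules apart at centromeres, gave 0.915 and 0.997 under mock knockdown and 1.33 and 1.48 after *SOX2* knockdown, a log2 change of 0.56 ± 0.14 (SE, n = 2 arrays per group, limma adjusted p = 0.168). *KIF23*, a subunit of centralspindlin, which positions the cleavage furrow, gave 1.16 and 1.20 under mock knockdown and 1.75 and 1.60 after *SOX2* knockdown, a log2 change of 0.50 ± 0.13 (SE, n = 2 arrays per group, limma adjusted p = 0.182). These were the largest changes among the motors and both came from well separated groups. *KIF4A*, a chromosome-bound motor, gave 0.628 and 0.708 against 0.835 and 0.745, and *KIF11*, Eg5, which pushes spindle poles apart, gave 1.54 and 1.45 against 1.80 and 1.69. *KIF15*, which can share the work of *KIF11*, gave 0.824 and 0.891 against 1.02 and 0.937. The remaining pair, both needed for cytokinesis, differed least between groups. *KIF20A* gave 2.07 and 2.18 against 2.40 and 2.21 and *KIF14* gave 0.827 and 0.855 against 0.903 and 0.885, and the arrays on either side of the gap were near each other.

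Of the other members, *ANLN*, anillin, a scaffold of the contractile ring, gave 1.96 and 1.67 against 2.42 and 2.19, and *ECT2*, the exchange factor that activates RhoA at the furrow, gave 1.95 and 1.96 against 2.27 and 2.21. *PRC1*, which bundles the microtubules of the central spindle, gave 2.005 and 2.22 against 2.31 and 1.96. The groups of *ANLN* and *ECT2* were separated and those of *PRC1* were not. *MYBL2*, B-MYB, gave 0.579 and 0.800 against 1.06 and 0.864, a log2 change of 0.49, with wide spread within each group. *FOXM1* gave 2.06 and 1.63 against 2.19 and 2.25, a log2 change of 0.28. Both transcription factors that activate late cell cycle genes were thus higher on both knockdown arrays, with 95% intervals that include 0. *MKI67*, the Ki-67 protein that coats mitotic chromosomes and is used as a proliferation marker, gave 0.428 and 0.400 against 0.488 and 0.462, *CDCA3*, a protein that takes part in the turnover of the mitotic inhibitor WEE1, gave 1.06 and 0.990 against 1.14 and 1.15, and *TOP2A*, the topoisomerase that untangles sister chromatids, gave 5.86 and 5.86 against 6.73 and 5.75. The knockdown arrays of *TOP2A* lay on either side of its mock arrays, and the separations of the other pair were small.

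**Figure D2:**
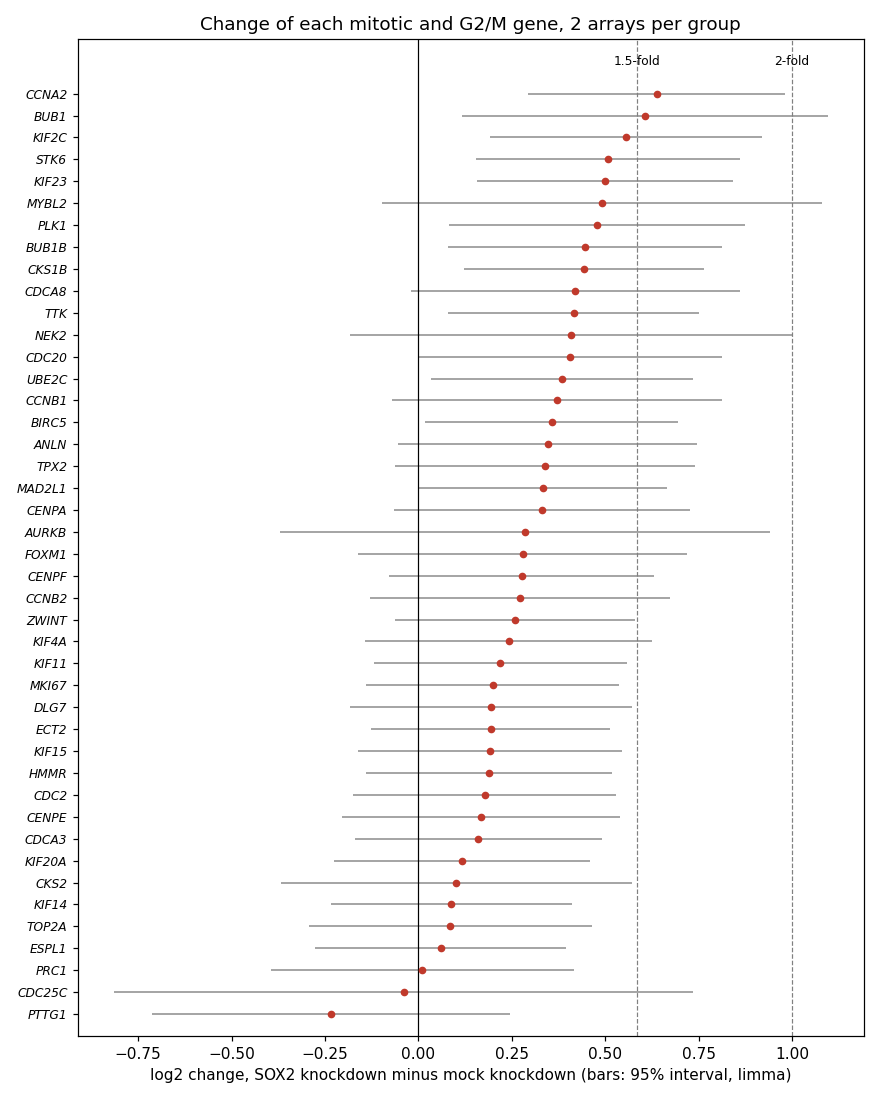
Log2 change of each of the 43 members (*SOX2* knockdown minus mock knockdown, horizontal axis) in order of size, with the 95% interval from limma (n = 2 arrays per group). Dashed lines mark 1.5-fold and 2-fold. The interval lies above 0 for 12 members and spans 0 for the others, and no point reaches 2-fold.

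Some symbols also belong to array features that carry no RefSeq accession of the gene, and these did not show the shift. The second features named *NEK2*, *TTK*, *KIF11*, *KIF4A* and *CKS1B* had log2 changes of -0.33, -0.17, -0.08, -0.08 and -0.03 in that order, and one named *CENPF* did not pass the filter. Values above use the feature that carries a RefSeq accession of the gene where there was one. *KIF2C* had a single feature, which carries none and was named by its symbol.

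Other genes of mitosis had a median on the same side of 0. A second list held 121 mitotic genes, of which 116 passed the filter. Their median log2 change was 0.20, with 88 above 0 and 28 below. The groups did not overlap upwards for 66 (56.9%, against 21.4% of all features) and downwards for 12 (10.3%, against 25.9%). Past 1.5-fold upwards were 6 of the 116, against 5.06% of all features. At an unadjusted p under 0.05 limma had 33 higher (28.4%, against 8.1% of all features) and 4 lower (against 9.14%). None had an adjusted p under 0.05. All 8 other genes of cytokinesis had positive log2 changes (median 0.39), while the 17 other genes of condensin and cohesin had a median of 0.06. The largest positive log2 changes were those of *SKA3* and *KIF18A*, which act on kinetochore microtubules, at 0.93 and 0.73, of *CDCA5*, which protects cohesion, at 0.69, and of *TRIP13*, which recycles MAD2, at 0.65. In *SKA3* mock replicate 2 was not above background (S/N 0.98), so the gene passed the filter only through the knockdown arrays, where it is high. The most negative were those of *STAG1*, a cohesin subunit, at -0.69, *ARPP19*, a phosphatase inhibitor, at -0.52, *ANAPC5*, a subunit of the anaphase-promoting complex, at -0.51, and *SPAG5*, a spindle protein, at -0.48. *STAG1* was past 2-fold as a ratio of means, 0.453, but its signal was 1.34 and 0.252 on the mock arrays against 0.348 and 0.375 on the knockdown arrays, so this rests on mock replicate 1.

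Genes of S phase and nucleotide synthesis lay on both sides of 0. Of 42 listed, 40 passed the filter, with a median log2 change of 0.07, 22 above 0 and 18 below. The groups did not overlap upwards for 18 (45%, against 21.4% of all features) and downwards for 9 (22.5%, against 25.9%). No gene was past 1.5-fold, against 5.06% of all features upwards and 4.83% downwards. The highest were *GINS4* and *GINS1*, subunits of the replicative helicase, at 0.55 and 0.40, *CDC6*, which loads it, at 0.43, and *CHAF1A*, of chromatin assembly, at 0.35. The lowest were *MCM6*, a helicase subunit, at -0.52, and *DUT*, *LIG1* and *UNG*, of nucleotide metabolism, DNA ligation and base repair, at -0.27, -0.27 and -0.22. The differences between the members and these lists were not tested.

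Among the repressors of cell cycle genes, 9 of the 12 genes listed, of the DREAM complex and related regulators, passed the filter, with a median log2 change of 0.07 and no gene past 1.5-fold. *CDKN1A*, p21, which blocks cyclin-dependent kinases, had 0.11 with overlapping groups. *RBBP4*, *RBL2* and *E2F4*, all of DREAM, had the 3 negative values, -0.29, -0.23 and -0.14. *LIN37*, *E2F5* and *TFDP1*, which also belong to it, had 0.46, 0.31 and 0.12. In limma none of these had an unadjusted p under 0.05.

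**Figure D3:**
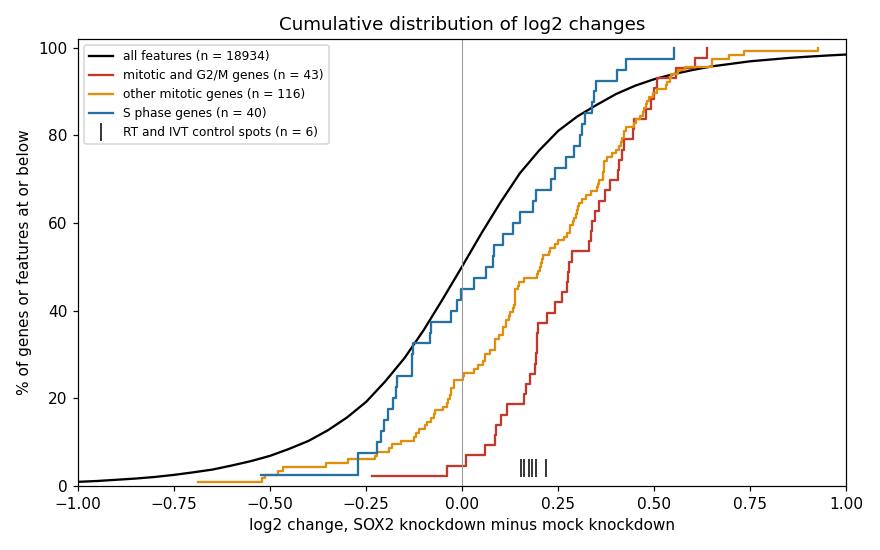
Share of genes (vertical axis, %) at or below each log2 change (horizontal axis, *SOX2* knockdown minus mock knockdown) for the 43 members, 116 other mitotic genes, 40 S phase genes and all 18934 features, with ticks for the 6 RT and IVT control spots. The curve of the members lies to the right of that of all features over most of its range and crosses it near the upper end. Every member lies at or below 0.65, against 95.7% of all features.

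Control spots moved in the same direction as the members. The array carries spots for controls spiked in before reverse transcription (RT) and before in vitro transcription (IVT). On the same scale their 6 medians were higher after knockdown by 0.15 to 0.22, with a median of 0.18 on the log2 scale. For 5 of the 6, both knockdown arrays lay above both mock arrays. When arrays were scaled to these spots, the median log2 change was 0.10 for the members and -0.18 for all features. Positive changes were seen in 32 of 43 members, and the share of all features with positive changes was not counted there. The groups did not overlap upwards for 17 members, against 9.96% of all features. The part of the spike-in shift in the members' result was not tested. Under each scaling tried, the members' median lay above that of all features.

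The count of separated members depended on the scaling. It was 36 under the 75th percentile, quantile and cyclic loess scaling (against 21.4%, 22.2% and 22.9% of all features) and 31 under normexp (against 18.2%). It was 18 under array medians and with no further scaling (against 14.4% and 14.7%), and 19 in the table the authors processed (against 15.2%). The median log2 change stayed between 0.24 and 0.30 under all of these. For all features, the share higher at an unadjusted p under 0.05 in limma was counted only under the report's own setting (8.1%). The changes in the members' count below therefore have no such share beside them. The 12 members at that limit became 2 with median scaling, no further scaling or the authors' table. They became 13 with quantile scaling or cyclic loess and 19 with a variance trend. With an array left out they numbered 2 without mock replicate 1 or without knockdown replicate 1, 1 without knockdown replicate 2 and 14 without mock replicate 2. Without mock replicate 2, 7 members were past 1.5-fold upwards in place of 2, and without mock replicate 1 there was 1.

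**Figure D4:**
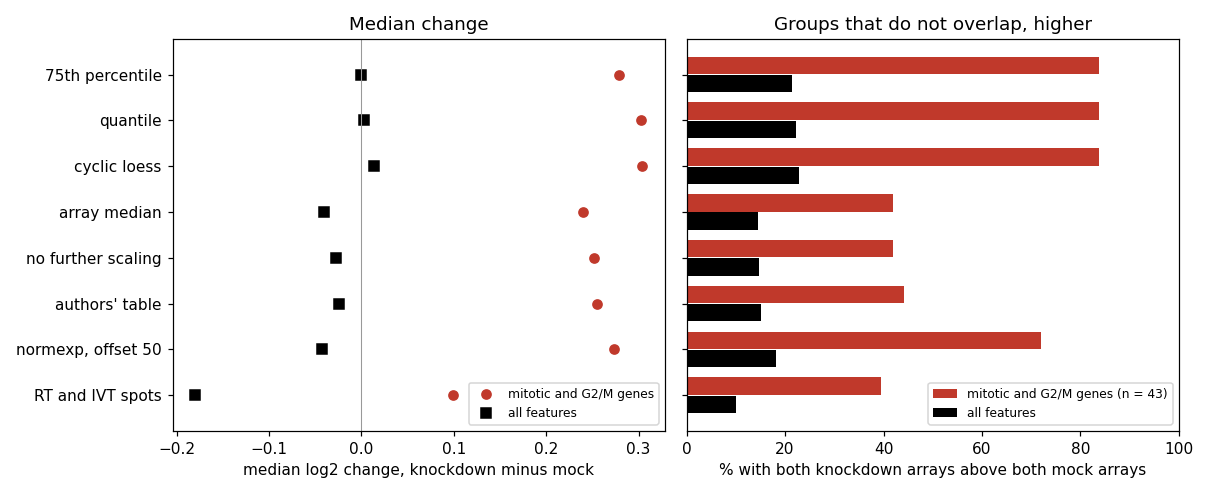
Left, median log2 change of the 43 members (red) and of all features (black) under 8 ways of scaling or correcting the arrays. Right, the share (%) whose knockdown arrays both lie above both mock arrays, which for the members falls from 83.7% under the 75th percentile to 17 of 43 when arrays are scaled to the RT and IVT control spots.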

How the data were processed

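Total RNA of *SOX2* knockdown and mock knockdown LN229 cells was biotin-labelled for Human Genome Survey arrays of Applied Biosystems. Groups came from the source names and replicate numbers from the titles of the labels. The deposited scanner files hold a normalized signal, which is a linear intensity for each probe, and per the file headers an S/N, used here as a score of detection. The table the authors processed holds a linear ratio per probe, the signal over its median across arrays. The study's methods average probes by gene ID, scale to the 75th percentile and apply a 2-fold cutoff.

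Here 210 probes with a flag of 5000 or more were left out, and probes were averaged by Celera gene ID. Since 662 of 27903 gene IDs hold probes of more than 1 symbol, these were split by symbol, a step chosen after seeing the data, and a gene's feature was the one with its RefSeq accession, then the brightest. Arrays were divided by their 75th percentile, floored at 0.01 and log2 transformed. A feature was kept if S/N exceeded 3 on each array of either group. Changes were tested with limma 3.58.1 in R 4.3.3 (lmFit and eBayes, two-sided, Benjamini-Hochberg over all features kept), after a test on simulated data. The number of arrays limits the precision. Every member is given per array, with full statistics for the 5 largest log2 changes in each direction (only 2 were negative). The members and lists were chosen with earlier results of these data known. One gene of the list of repressors is not reported here and was left out of that list's counts. Motifs were searched in Python. Promoter coordinates are those of GRCh38.p14, and none is given for probes. Alternatives covered scaling, background correction, floor, filters, flags, probe choice, variance trend, a replicate block and leaving out each array.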

Additional observations from a re-analysis of the deposited data

How the results depend on the processing

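No alternative gave a member past 2-fold or a member with an adjusted p under 0.05 in limma, and in no alternative did the members' median log2 change turn negative. The number of members past 1.5-fold, 2 in the report, was 1 with median scaling, no further scaling and the authors' table, and 0 with scaling to the RT and IVT control spots (an alternative chosen after seeing the data). It ran from 1 to 7 when single arrays were left out. Members whose groups did not overlap upwards numbered 18 with median scaling and no further scaling, 19 in the authors' table and 17 with the control spots (against 14.4, 14.7, 15.2 and 9.96% of all features). Those that did not overlap downwards numbered 0, 0, 0 and 2 under the same settings (against 22, 20, 20.1 and 42% of all features), 4 when the brightest feature of each symbol was used (also chosen after seeing the data), and 1 to 3 with an array left out (against 35.7 to 42.7% of all features). The upward count then ran from 37 to 39 of 43 members, against 30 to 40.9% of all features, up from 21.4%, since 3 arrays separate more easily. The median log2 change was 0.0992 with the control spots, where that of all features was -0.180, and 0.247 to 0.325 with an array left out. At an adjusted p under 0.1 in limma there were 4 members with a variance trend and 3 with the crossed replicate block, against 0 in the report. The share of all features at that limit was counted only in the report (1.76%). Over all features, limma had 0 calls at an adjusted p under 0.05 in the report, 699 with median scaling, 674 with no further scaling, 666 in the authors' table, 267 with a variance trend, 24 with the control spots and 3 where every array had to exceed the S/N limit, and none of these calls was a member.

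The *SOX2* log2 change kept its sign throughout. Its adjusted p fell to 2.42e-07 with median scaling (-1.73), 4.07e-07 with no further scaling (-1.72) and 3.31e-07 in the authors' table (-1.72). Under the other settings run it stayed above 0.05. Leaving out arrays gave -1.98 to -1.40. *CDC25C*, whose log2 change was near 0, turned positive with normexp (0.0799), without mock replicate 1 and without knockdown replicate 1, and ran from -0.37 to 0.29 with an array left out. The causes were not tested.

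With the replicate number as a replicate block, 0 members had an adjusted p under 0.05 in limma and 3 an unadjusted p under 0.05, in place of 12. The share of all features at this unadjusted p was not counted with a block. The same-numbered samples did not deviate together (r = -0.50 across features between the replicate differences of the groups, and -0.12 across the members). The negative sign means that differently numbered samples tended to deviate together, which the report's own limma fit did not model. A crossed replicate block, chosen after seeing the data, gave 0 members at the adjusted limit and 18 at the unadjusted limit. The numbers are therefore not taken to pair the samples.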
